A study of Saccharomyces cerevisiae with 6 samples.

Results

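The 10 genes described here code for enzymes of the mitochondrial tricarboxylic acid cycle of Saccharomyces cerevisiae, from citrate synthase to fumarase. They were taken as a list of symbols, each matched to a probe set that the platform annotation gives to that gene alone, and all 10 were found among 5449 genes tested. Every gene of the 10 had 1 probe set. Messenger RNA was measured on 6 Affymetrix arrays, 3 of a strain with GCR2 deleted and 3 of the wild-type strain FY4, a laboratory strain without nutritional requirements that derives from S288C. GCR2 codes for an activator that works with Gcr1 on glycolytic genes, and the comparison asks which transcripts differ when it is missing. Both strains grew in glucose minimal medium in batch at 30 °C with shaking at 300 rpm and were taken in exponential growth. The labels name no strain for the deletion samples, do not say how many deletion clones were used, and do not tell whether each replicate was its own culture. The p-values therefore set the difference between groups only against the scatter of these arrays, which can be technical.

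The cycle oxidises acetyl-CoA to carbon dioxide and hands the electrons to the respiratory chain. It also supplies 2-oxoglutarate, from which glutamate and most amino nitrogen are made, so yeast on minimal medium needs the steps up to 2-oxoglutarate even while it ferments glucose. On glucose many of these genes are held down. The Hap2/3/4/5 activator drives them when respiration is needed, and the retrograde regulators Rtg1 and Rtg3 maintain CIT1, ACO1, IDH1 and IDH2 in cells with weak respiration.

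GCR2 read 4.59 ± 0.15 on the log2 intensity scale in the deletion and 11.11 ± 0.05 in wild-type (SD, n = 3 each). It lay under background on all 3 deletion arrays, so it was at least 27.5-fold lower there (limma adjusted p = 1.01e-06). Background was the 95th percentile of the probe sets for another yeast species on the same array, between 69.6 and 97.1 in intensity. Of the tested genes, 96.8% to 97.9% lay above it on each array. Along the first principal component (61.8% of the variance) the deletion arrays fell on one side and the wild-type arrays on the other. Deletion replicate 1 and wild-type replicate 3 were the outermost. Of 4 kinds of control probe sets, 3 moved with the groups. Those for 18S ribosomal RNA read 12.95 ± 0.15 in the deletion and 14.10 ± 0.08 in wild-type, those for 25S read 11.94 ± 0.48 in the deletion and 13.44 ± 0.13 in wild-type, and poly-A spike-in controls, bacterial RNAs added before labelling, read 7.35 ± 0.24 in the deletion and 8.22 ± 0.40 in wild-type. Hybridization controls, added after labelling, read 11.35 ± 0.23 in the deletion and 11.51 ± 0.03 in wild-type, a difference within the spread of the deletion arrays. All changes below are relative to the rest of each array, and they do not tell a difference in cell number from a difference in RNA per cell. Markers of mating type a, the 7 genes on the list, were above background on all 6 arrays. So were the 4 alpha markers, and detection alone does not separate the types. Median log2 levels were 13.03 for the a markers and 8.02 for the alpha markers. Of the a markers 2 were called higher in the deletion (BAR1 and ASG7), and of the 4 alpha markers STE3 alone was called, also higher.

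Transcripts of 4 cycle enzyme genes rose by small amounts in the deletion, and that of one subunit of succinyl-CoA ligase fell. Citrate synthase (CIT1), the E2 and E3 components of the 2-oxoglutarate dehydrogenase complex (KGD2 and LPD1) and fumarase (FUM1) rose by 11.2% to 19.1%. The ligase gene LSC2 fell by 19.2%. The other 5 genes were not called. A gene was called at a Benjamini-Hochberg adjusted p under 0.05 from limma over all 5449 genes. Thus 4 of 10 were called higher, against 14.1% of all tested genes, and 1 of 10 was called lower, against 8.35%; in either direction it was 5 of 10, against 22.5%. Among the 1457 genes with a mean log2 intensity of at least 12, as all members had, 13.7% were called higher and 7.07% lower. The median change of the 10 genes was 0.12 on the log2 scale, where the median of all genes was 0.02. Their median absolute change was 0.15, near the 0.13 of all genes. No member changed as much as 2-fold, and 870 genes (16%) differed by more than LSC2, the member with the largest change.

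The arrays of the deletion lay wholly above those of wild-type for 5 of the 10 genes and wholly below for 2 (ACO1 and LSC2). Across all genes, 27.1% were wholly above and 18.1% wholly below, 45.2% in all. All 60 readings of the members were far over background, between 4371 and 20325 in intensity. Within the deletion, replicate 1 gave the lowest reading for 7 of the 10 genes. Within wild-type, replicate 2 gave the highest reading for 8 and replicate 1 the lowest for 6.

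**Figure D1:**
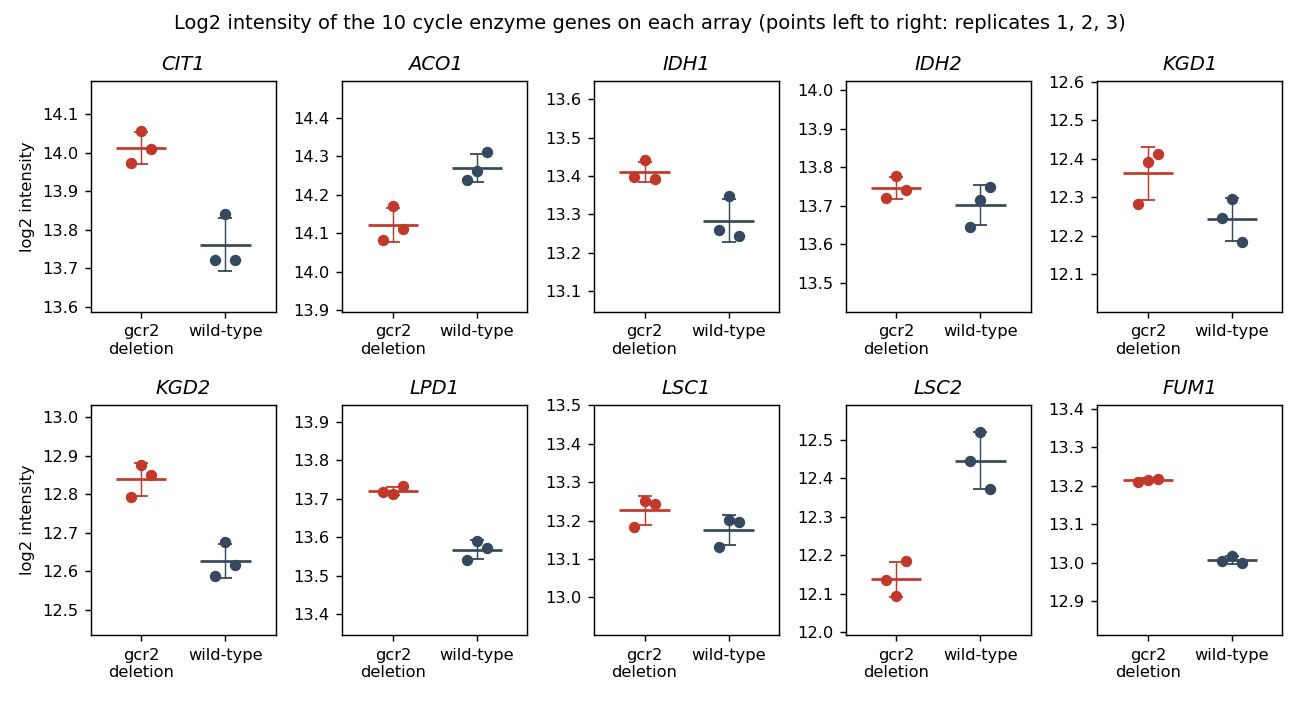
Log2 intensity (vertical axis, each panel spanning the same range) of the 10 cycle enzyme genes on the 3 gcr2 deletion arrays, left in each panel, and the 3 wild-type arrays, right, with lines at the mean and bars of 1 SD. The groups do not overlap for CIT1, ACO1, IDH1, KGD2, LPD1, LSC2 and FUM1, and they overlap for IDH2, KGD1 and LSC1.

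CIT1 (YNR001C), the mitochondrial citrate synthase that joins acetyl-CoA to oxaloacetate at the entry of the cycle, showed the largest rise. Its intensity was 16074, 17030 and 16496 in deletion replicates 1, 2 and 3, against 13506, 14668 and 13508 in wild-type. The lowest deletion array was above the highest wild-type array. The log2 change was 0.25 (SE 0.05, 95% interval 0.13 to 0.38, limma adjusted p = 0.0206). Its call was lost in 6 of 16 alternative analyses, among them those without deletion replicate 1, 2 or 3 and without wild-type replicate 1.

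ACO1 (YLR304C), the aconitase that turns citrate into isocitrate, went the other way. It read 17348, 18434 and 17687 in the deletion, against 19343, 19646 and 20325 in wild-type. All deletion arrays lay below all wild-type arrays. The log2 difference of -0.15 (SE 0.04, interval -0.26 to -0.04) just missed the threshold, with a limma adjusted p = 0.0545. It was called in 3 of 16 alternatives in the same direction, under quantile normalization (adjusted p = 0.0352), array weights (0.0323) and an intensity-trended robust prior (0.0248).

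IDH1 (YNL037C) and IDH2 (YOR136W) code for the regulatory and the catalytic subunit of the NAD-dependent isocitrate dehydrogenase, the step that commits carbon to 2-oxoglutarate. IDH1 read 10786, 11121 and 10754 in the deletion, against 9809, 10431 and 9698 in wild-type. IDH2 read 13491, 14034 and 13700 in the deletion, against 12808, 13440 and 13759 in wild-type. The groups were apart for IDH1 and overlapped for IDH2. Neither was called. IDH1 differed by 0.13 (interval 0.02 to 0.24, limma adjusted p = 0.0924) and IDH2 by 0.04 (interval -0.06 to 0.15, adjusted p = 0.501), so a rise of IDH2 above 0.15 lies outside its interval. With array weights IDH1 was called higher (adjusted p = 0.0478), as it was with spike-in centring.

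The 2-oxoglutarate dehydrogenase complex makes succinyl-CoA, and its 3 core components leaned the same way. KGD1 (YIL125W), the E1 dehydrogenase, read 4981, 5373 and 5448 in the deletion, against 4859, 5027 and 4652 in wild-type. Deletion replicate 1 lay inside the wild-type range, and the difference of 0.12 (SE 0.05, interval -0.01 to 0.25) was not called (limma adjusted p = 0.16). KGD2 (YDR148C), the E2 succinyltransferase, read 7092, 7520 and 7383 in the deletion, against 6157, 6547 and 6276 in wild-type, with no overlap. It rose by 0.21 (SE 0.04, interval 0.10 to 0.32, limma adjusted p = 0.0229).

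LPD1 (YFL018C) codes for dihydrolipoamide dehydrogenase, the E3 component that the complex shares with pyruvate dehydrogenase and the glycine cleavage system. Its intensity was 13467, 13434 and 13612 in the deletion, against 11917, 12334 and 12184 in wild-type. These are tight, separate groups, and the rise was 0.15 (SE 0.04, interval 0.06 to 0.24, limma adjusted p = 0.0317). The call was the least stable among the called enzymes, lost in 10 of 16 alternatives, 2 of them rescalings of the arrays (adjusted p = 0.0775 under quantile normalization and 0.0613 under median centring). KGD2 lost its call in 6, the same 6 analyses as CIT1.

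Succinyl-CoA ligase, which yields the nucleotide triphosphate of the cycle, is a dimer of an alpha subunit from LSC1 (YOR142W) and a beta subunit from LSC2 (YGR244C). LSC1 read 9306, 9757 and 9700 in the deletion, against 8977, 9415 and 9380 in wild-type. The groups overlapped, and the difference was 0.05 (interval -0.05 to 0.15, limma adjusted p = 0.414). LSC2 read 4500, 4371 and 4654 in the deletion, against 5580, 5874 and 5299 in wild-type. Every deletion array was below every wild-type array. LSC2 fell by 0.31 on the log2 scale (SE 0.05, interval -0.44 to -0.18, limma adjusted p = 0.0134), which is 1.24-fold lower. Its call was lost in 5 of 16 alternatives, among them those without deletion replicate 1 (adjusted p = 0.054) or 2 (0.052), and its direction turned in 1, the centring on spike-in controls.

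FUM1 (YPL262W), the fumarase that hydrates fumarate to malate in mitochondria and cytosol, had the smallest p-value of the 10. It read 9468, 9516 and 9533 in the deletion, against 8210, 8293 and 8194 in wild-type. The spread within each group was the narrowest of the members, 0.01 on the log2 scale in each group. FUM1 rose by 0.21 (SE 0.03, interval 0.12 to 0.29, limma adjusted p = 0.0121). It kept its call without any single wild-type array and without deletion replicate 2, and lost it in 4 of 16 alternatives, among them those without deletion replicate 1 (adjusted p = 0.0529) or 3 (0.0691).

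**Figure D2:**
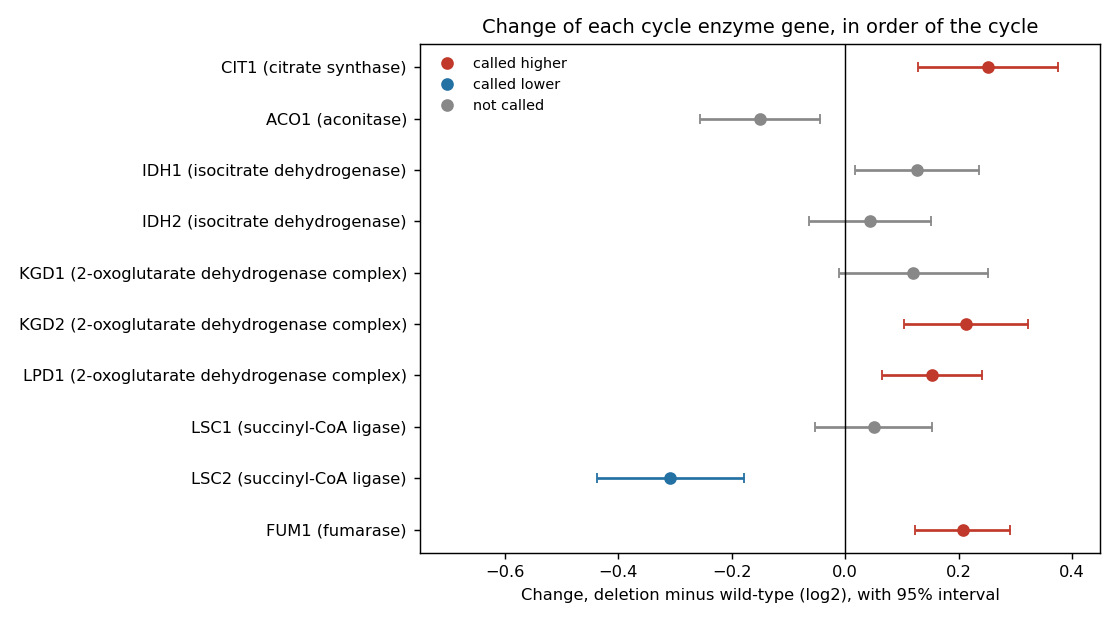
Log2 change, deletion minus wild-type, of each cycle enzyme gene with limma's 95% interval, from citrate synthase at the top to fumarase at the bottom. CIT1, KGD2, LPD1 and FUM1 were called higher by 0.15 to 0.25, LSC2 was called lower by 0.31, and the other 5 were not called.

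On these arrays subunit genes of the same enzyme differed by unequal amounts between the strains, which no test here could call. The log2 difference LSC1 minus LSC2 was taken within each array, so that anything scaling a whole array cancels. It was 1.05, 1.16 and 1.06 in deletion replicates 1, 2 and 3, against 0.69, 0.68 and 0.82 in wild-type. The groups did not overlap, and their means differed by 0.36. For IDH1 minus IDH2 the means differed by 0.08, and for KGD1 minus KGD2 by -0.09, without overlap but with narrow gaps. The nearest arrays read -0.349 in the deletion and -0.366 in wild-type for IDH1 minus IDH2. For KGD1 minus KGD2 they read -0.438 in the deletion and -0.432 in wild-type. Each of these 3 comparisons gave a two-sided exact permutation p = 0.1 (0.1 after adjustment over the 3), which is the smallest that 3 arrays against 3 allow. No difference between subunits can therefore pass 0.05 in this test. How often other pairs of genes lie apart in this way was not computed.

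**Figure D3:**
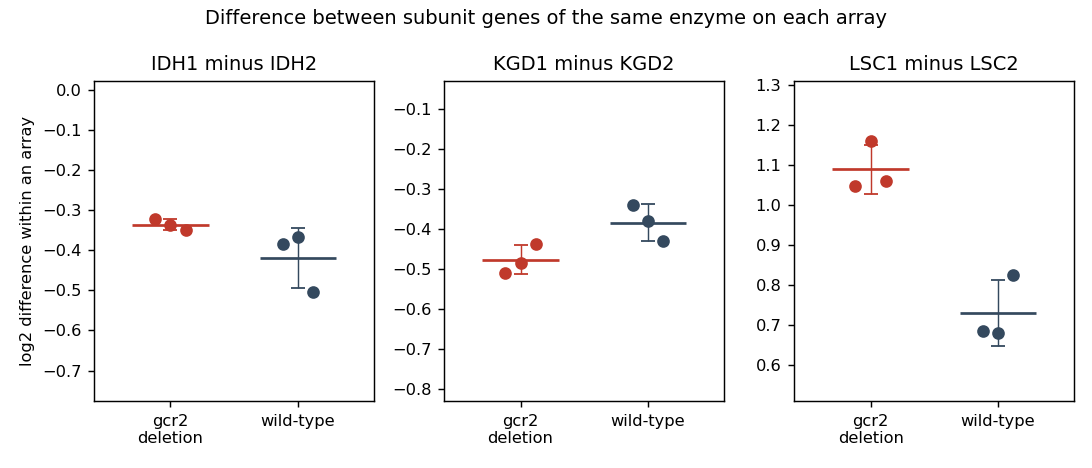
Log2 difference between subunit genes of the same enzyme within each array, for the gcr2 deletion on the left of each panel and wild-type on the right, with the mean and 1 SD; all panels span the same range. LSC1 minus LSC2 averaged 1.09 ± 0.06 in the deletion and 0.73 ± 0.08 in wild-type, and the groups do not overlap in any panel. In the other panels the nearest deletion and wild-type arrays lie close together.

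The number of calls depended on which array was left out. Without wild-type replicate 2 all 5 calls were kept, 4 higher and 1 lower, and without wild-type replicate 3 there were 3 higher and 1 lower, with LPD1 not called. Without deletion replicate 1 no enzyme gene was called in either direction, without deletion replicate 3 none was called higher, and without deletion replicate 2 or wild-type replicate 1 FUM1 alone was called higher. Without both deletion replicate 1 and wild-type replicate 3, again none was called. At an unadjusted limma p under 0.05 the enzyme genes were 5 higher and 1 lower without deletion replicate 1, 4 higher and 1 lower without deletion replicate 3, and 4 higher and 1 lower without the pair. With all 6 arrays they were 5 higher and 2 lower. All single changes kept their direction in each of these analyses, and CIT1 stayed between 0.23 and 0.29. Calls over all genes changed as well, falling to 239 higher and 167 lower without deletion replicate 3, against 769 higher and 455 lower with all arrays. The shares of all genes called higher and lower were 13.8% and 8.7% without wild-type replicate 2. They were 11.9% and 6.7% without wild-type replicate 3, and 8.22% and 6.2% without wild-type replicate 1. Without deletion replicate 1 they were 5.51% and 3.36%, without deletion replicate 2 6.44% and 3.52%, and without the pair 3.65% and 2.37%. In simulated data with the same 5449 genes, limma recovered 19 of 50 genes changed by 0.3 and 40 of 50 changed by 0.5, with 7 false calls. Smaller changes were not simulated. The simulation changed 50 genes at each of the sizes 0.3, 0.5, 1 and 2, with independent noise. That is a far smaller share than the 22.5% called in the data, so this recovery does not measure the sensitivity of the real comparison.

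When each array was centred on the poly-A spike-in controls, the median change of all genes moved to 0.90, with 4943 genes called higher and 9 lower. On that scale 9 of the 10 enzyme genes were called higher, ACO1 turned to 0.73 (limma adjusted p = 0.0237) and LSC2 turned to 0.57, not called (adjusted p = 0.0716). This centring shifts all genes of an array by the same amount. The place of LSC2 and ACO1 below the median change of all genes therefore could not alter. The part of RNA preparation in these results was not tested; the labels name no preparation batch.

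**Figure D4:**
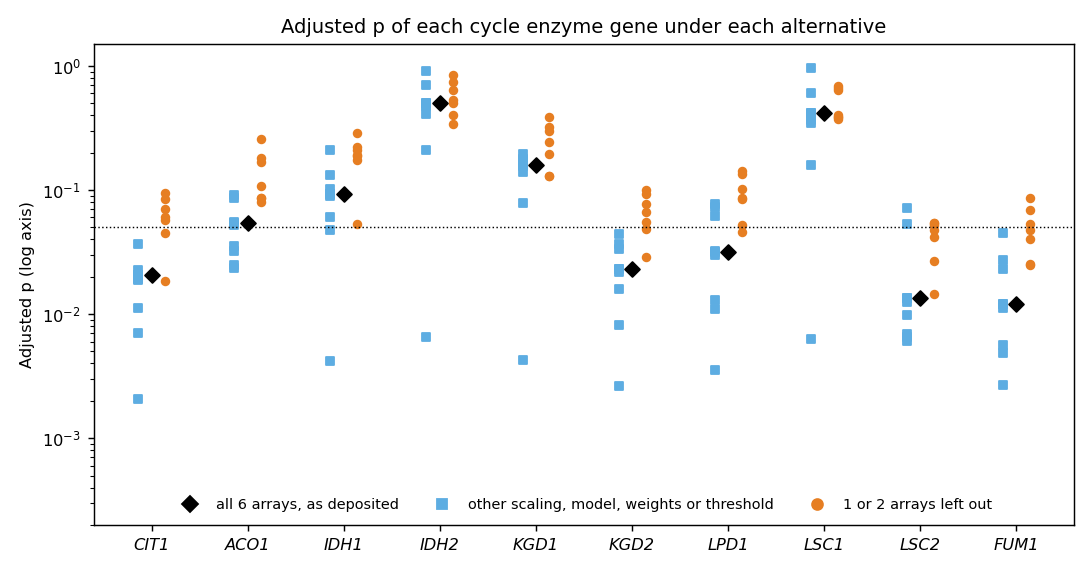
Benjamini-Hochberg adjusted p from limma (vertical log axis) of each cycle enzyme gene with all 6 arrays as deposited (black diamonds), under other scalings, models, weights or threshold (blue squares) and with 1 or 2 arrays left out (orange circles); the dotted line is at 0.05. IDH2, KGD1 and LSC1 stayed above the line except in 1 setting, the centring on spike-in controls, and most orange circles of CIT1, KGD2 and LPD1 lie above it.

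The remaining steps of the cycle split within one enzyme. Of 12 further cycle genes listed, 11 were measured, 2 rose, 2 fell and 7 did not pass. Succinate dehydrogenase passes electrons from succinate to ubiquinone. Its iron-sulfur subunit gene SDH2 rose by 0.22 (limma adjusted p = 0.03), with 4827, 5113 and 5172 in the deletion, against 4366, 4499 and 4155 in wild-type. The membrane anchor gene SDH3 rose by 0.20 (adjusted p = 0.0368), whereas the flavoprotein gene SDH1 fell by 0.17 (adjusted p = 0.0449), with 4090, 4314 and 4317 in the deletion, against 4803, 4856 and 4602 in wild-type. Each of these 3 groups of deletion arrays was apart from wild-type, and each call was lost in 8 of 16 alternatives. SDH1 also turned to a rise in 1, the centring on spike-in controls. SHH3, a paralog of SDH3, was called lower but lay above background on 1 of 6 arrays only. The other anchor gene SDH4 differed by 0.15 and MDH1, the mitochondrial malate dehydrogenase, by 0.11 (adjusted p = 0.0674 and 0.0743). SDH7 differed by 0.47, KGD4 by 0.28 and SDH5 by 0.22, with SDs of 0.64, 0.26 and 0.37 in wild-type, and none of them was called.

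Isozymes that run the same reactions elsewhere were mostly not called, with 2 of 9 measured genes higher, 0 lower (1 by limma at an unadjusted p under 0.05) and 7 not passing. MDH2, the cytosolic malate dehydrogenase, rose by 0.84 (limma adjusted p = 0.00403), reading 1641, 1661 and 1812 in the deletion, against 929, 1081 and 853 in wild-type. It kept its call in all 16 alternatives. FRD1, a cytosolic fumarate reductase, rose by 0.27 (adjusted p = 0.0088). CIT2, the peroxisomal citrate synthase, differed by 0.08 (adjusted p = 0.224). IDP3 and MDH3, of the peroxisome, differed by -0.29 and -0.16 and were not called.

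Apart from the shared LPD1, genes of pyruvate dehydrogenase, which supplies the acetyl-CoA, were not called. PDA1, PDB1 and LAT1, its E1 and E2 genes, differed by -0.01, 0.01 and 0.04 (SE 0.04 each). Of 13 genes for pyruvate import, carboxylation and oxidation 1 rose and 12 did not pass; the riser was PTC6, a phosphatase acting on that complex, at 0.34 (limma adjusted p = 0.0178). The pyruvate carrier genes MPC3, MPC1 and MPC2 differed by -0.38, -0.15 and 0.14 and the pyruvate carboxylase gene PYC2 by -0.11. LPD1, shared by both complexes, was thus called where the other pyruvate dehydrogenase genes were not; that contrast was not tested. The 4 genes of lipoate attachment, which modifies KGD2's and LAT1's products, differed by -0.18 to -0.09, and none passed in limma, with 0 at an unadjusted p under 0.05.

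Among 8 carriers that move cycle intermediates across the inner membrane, DIC1, the dicarboxylate carrier, fell by 0.63 (limma adjusted p = 0.00341). It read 3089, 2946 and 3157 in the deletion, against 4693, 5161 and 4416 in wild-type. DIC1 kept its call in 15 of 16 alternatives and turned to a rise of 0.24 in 1, the centring on spike-in controls. ODC2, a 2-oxodicarboxylate carrier, rose by 0.17 (adjusted p = 0.0228), but its call was lost in 9 of 16 alternatives. Its paralog ODC1 differed by -0.21 without a call (adjusted p = 0.0979). The other 5 carriers did not pass, with YHM2 at 0.07 and CTP1 at 0.06, both citrate carriers. SFC1 was under background on all 6 arrays.

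Genes for the activators of the cycle went both ways. HAP4, the activating subunit whose amount limits the Hap complex, fell by 0.62 (SE 0.11, limma adjusted p = 0.0135). It read 2972, 3861 and 3812 in the deletion, against 5372, 5578 and 5283 in wild-type, with deletion replicate 1 lowest. HAP2, a DNA-binding subunit, rose by 0.30 (adjusted p = 0.0343), and HAP3 and HAP5 differed by 0.52 and 0.25 with adjusted p = 0.0505 and 0.0513. HAP4 kept its call in 14 of 16 alternatives, among them the one without both deletion replicate 1 and wild-type replicate 3. It turned to a rise of 0.26 in 1, the centring on spike-in controls. HAP2 kept its call in 9 of 16.

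In the retrograde pathway 1 of 5 genes rose and 4 did not pass. DLD3, a dehydrogenase gene that with CIT2 is a standard target of Rtg1 and Rtg3, rose by 0.19 (limma adjusted p = 0.0268), and 8 of 16 alternatives did not call it. The regulator genes RTG1, RTG2, RTG3 and MKS1 differed by 0.19, 0.08, -0.03 and 0.13. Among 6 genes that use or make 2-oxoglutarate all changes were positive and 1 was called. It was GDH3, an NADPH-dependent glutamate dehydrogenase, which rose by 0.52 (adjusted p = 0.00909). Its main isozyme GDH1 differed by 0.08, the glutamate synthase gene GLT1 by 0.10, and the homocitrate synthase genes LYS20 and LYS21 by 0.08 and 0.11.

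Over these related lists together, 9 of 60 measured genes were called higher and 4 lower, close to the shares of all genes. None of the 8 listed genes of the mitochondrial genome was matched to a probe set, and they were not analysed here. Over the 6 arrays, the mean profile of the 10 enzymes was most like those of CBT1, ECM29, HSP78, TSL1 and MCR1, with Pearson r between 0.992 and 0.996. This is a description, since 301 of the 5439 other genes had r over 0.9 and all share the same arrays.

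**Figure D5:**
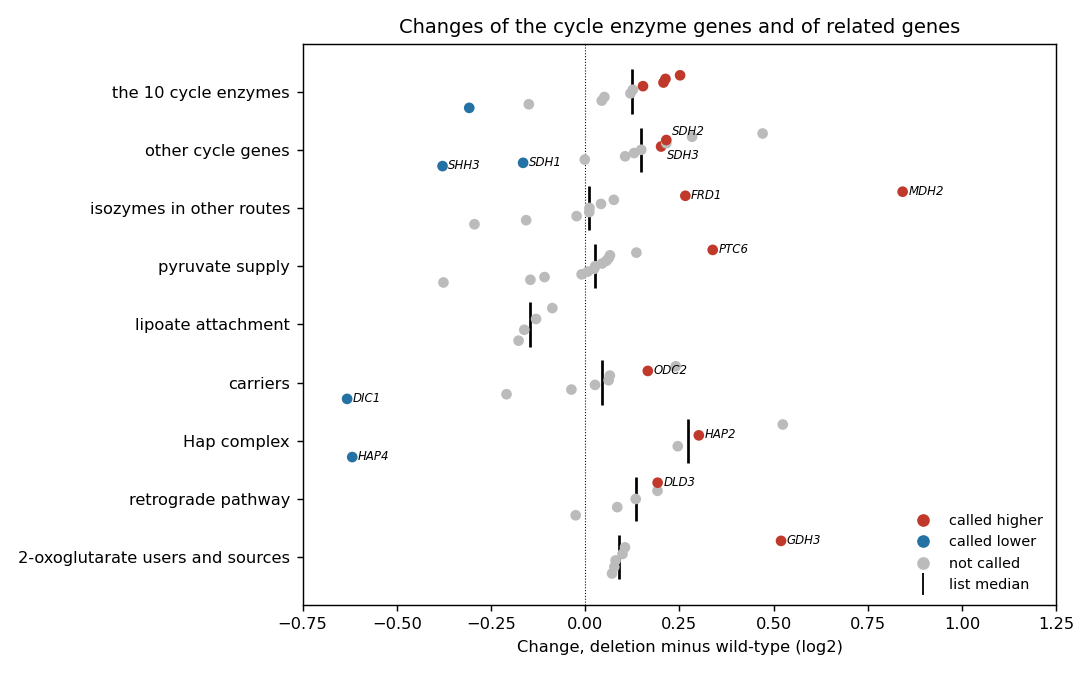
Log2 change, deletion minus wild-type, of the 10 cycle enzyme genes (top) and of the measured genes of 8 related lists, each point 1 gene and each black bar the list's median. MDH2 at 0.84 and GDH3 at 0.52 lie at the high end of the called genes, and DIC1 at -0.63 and HAP4 at -0.62 at the low end.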

How the data were processed

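The authors deposited 1 table of probe-set intensities on a linear scale for 10928 probe sets and 6 arrays, from 9.14 to 37181. The submitters' processing notes name R 2.8.0, affy and RMA as their source; RMA corrects background, equalises intensity distributions between arrays and summarises probes, so a change in total messenger RNA is not visible. The build was not given in the sources used here.

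Log2 was taken with no pseudocount. Probe sets with 1 annotated gene (7244; 1 had several, 3683 were unlisted) were matched by gene identifier to RefSeq assembly R64 names, 5498 of them; the other 1746 set the background. The brightest probe set stood for each of 47 genes with several, leaving 5449 genes, none filtered. limma 3.58.1 in R 4.3.3 (lmFit, eBayes, no covariates) gave log2 changes, standard errors and two-sided Benjamini-Hochberg adjusted p-values. The median half-width of a 95% interval was 0.15, set by 3 arrays per group. Levels are mean ± SD. The fit was tested on simulated data.

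The members, related lists and alternatives were chosen with earlier results of these data known. Named are the 10 enzymes, GCR2, each called gene and up to 4 uncalled genes with the largest differences of each related list, and the 5 genes of the most similar profile. Genes named outside this rule (PDA1, PDB1, LAT1, MDH1, BAR1, ASG7 and STE3) were chosen after their values were seen. Alternatives were a block on the replicate number, leaving out arrays, quantile normalization, median centring, spike-in centring, a filter on dim genes, averaged probe sets, array weights, a trended robust prior and an adjusted p under 0.01. No sequences were used here.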

Additional observations from a re-analysis of the deposited data

How the results depend on the processing

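Of the 10 enzyme genes 4 were called higher and 1 lower. Leaving out single arrays gave 0 to 4 higher and 0 to 1 lower; over all genes it gave 239 to 751 higher and 167 to 474 lower, and over the related lists 3 to 11 higher and 2 to 5 lower. Without both deletion replicate 1 and wild-type replicate 3 the counts were 0 and 0 for the enzymes, 199 and 129 for all genes, and 1 and 2 for the related lists, higher and lower in that order. At an adjusted p under 0.01 they were 0 and 0, 224 and 123, and 3 and 1. Spike-in centring gave 9 and 0, 4943 and 9, and 55 and 0; ACO1 turned to 0.73 and LSC2 to 0.57. Quantile normalization, array weights and the trended robust prior each called 2 enzyme genes lower (3, 5 and 4 higher, in that order), and quantile normalization turned LSC1 to -0.0034. Of all genes, quantile normalization called 10.8% higher and 8.52% lower. Array weights called 21% higher and 12.1% lower, and the trended robust prior 14.8% higher and 8.86% lower. Fitting the replicate number as a block gave 0 enzyme genes lower (3 higher), 433 and 300 over all genes, and 3 and 2 over the related lists. Same-numbered arrays deviated with correlations of 0.53, -0.17 and -0.44, and 1 of 3 deletion arrays was closest to its own number, so the numbers were not taken as pairs. The cause of these shifts was not tested. The filter on dim genes, averaged probe sets and median centring kept the enzyme counts within 1.5 times. The subunit differences kept their direction wherever they were recomputed. All readings of the 10 genes were far over background.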
